A study of Mus musculus with 4 samples.

Results

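Vimentin (Vim), Ahnak, galectin-1 (Lgals1), Cd44 and Helios (Ikzf2) were followed across 4 groups of the mouse erythroblast line G1E. G1E descends from cells that lack GATA-1, the zinc finger factor that drives red cell maturation. The genes were taken by symbol from the authors' 6 tables of pairwise comparisons, and all 5 of the 5 symbols were found among the 2982 genes listed there. The groups were the G1E control, G1E carrying the wild-type factor (GATA-1 WT), and G1E carrying a mutant of it, either GATA-1 2RA or GATA-1 V205M. The labels give each group 1 sample and give β-estradiol induction for all 4, the control included. V205M is known to weaken the contact of GATA-1 with its cofactor FOG-1, and what 2RA stands for is not spelled out in the labels. How each form was introduced, and whether a group is 1 clone, is not stated in the labels.

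Vimentin is the intermediate filament protein of mesenchymal and immature blood cells, and it is known to be lost as mammalian erythroid cells mature. Ahnak is a giant scaffold protein under the cell membrane that binds the complex of annexin A2 and S100A10. Galectin-1 is a secreted lectin for β-galactosides, CD44 is the main receptor for hyaluronan and a surface marker that declines during erythroblast maturation, and Helios is a zinc finger factor of the Ikaros family found in stem cells and lymphocytes. The 5 genes were chosen because of their levels in these same tables, so the levels and folds of these genes are a description and carry no test.

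Levels are in scaled reads: the authors' read count of a group, divided by its size factor and averaged over the group's count columns. The tables list a gene for a pair of groups only when its adjusted p was below 0.01 and its change above 2-fold. The adjustment of the p-values gives 12931 genes tested in 5 of the 6 tables, and this number was used for all. The table of the 2 mutants holds rounded p-values, which give no exact number. All 5 genes had a level in each of the 4 groups, as did 1157 of the 2982 listed genes. Gata1 itself, whose form differs between the groups, stood at 153 scaled reads in the control but 2652 with GATA-1 WT, and 613 with GATA-1 V205M and 1421 with GATA-1 2RA. Recovered reads, summed over listed genes, ranged from 276064 to 2178397 over 6 count columns, of which the control and GATA-1 V205M had a pair each. Intervals below are 95% counting intervals from exact Poisson or binomial limits on the reads of a group. They cover counting error only, since there is no replicate check. The lowest count in each column was 1, and whether 1 had been added to every count is not stated. If it had, a single read below would stand for 0 reads, and low counts with their folds and intervals would shift.

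The letters just before the start site are shown for the genes found in RefSeq's promoter table (GRCm38.p6), which were 3 of the 5 (not Lgals1 and Ikzf2), so that the proximal promoters of genes with different patterns can be compared. Each line is the 250 bases upstream of the RefSeq start site, 5′ to 3′ on the gene's strand. The Ahnak and Cd44 windows end next to the first base of the gene model in GENCODE M21. The Vim window lies inside its gene model, which starts at 13573927, so it is upstream of a later start site only. Capitals mark AGATAA in Cd44 (at chr2:102901666-102901915, minus strand), TATAAA in Vim (at chr2:13574061-13574310, plus strand) and CCGCCC, the reverse complement of GGGCGG, in Ahnak (at chr19:8989034-8989283, plus strand).
Vim: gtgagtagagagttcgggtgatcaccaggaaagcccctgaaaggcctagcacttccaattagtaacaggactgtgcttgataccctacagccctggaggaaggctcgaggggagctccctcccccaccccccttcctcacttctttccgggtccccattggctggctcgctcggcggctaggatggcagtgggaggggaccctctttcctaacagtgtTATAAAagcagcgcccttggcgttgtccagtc
Ahnak: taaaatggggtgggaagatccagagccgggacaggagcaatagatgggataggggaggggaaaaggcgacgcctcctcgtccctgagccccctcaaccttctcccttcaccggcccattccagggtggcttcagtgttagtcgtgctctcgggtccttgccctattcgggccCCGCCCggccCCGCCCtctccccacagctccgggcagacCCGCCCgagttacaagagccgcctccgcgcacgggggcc
Cd44: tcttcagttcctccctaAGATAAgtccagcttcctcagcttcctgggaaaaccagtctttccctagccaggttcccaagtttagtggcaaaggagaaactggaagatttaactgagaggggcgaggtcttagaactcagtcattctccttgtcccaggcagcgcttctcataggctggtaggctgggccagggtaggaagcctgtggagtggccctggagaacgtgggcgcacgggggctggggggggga
Letters bound by GATA factors were searched on both strands of all 27025 promoters of this length. AGATAA was held by 10.3% of them, AGATAG by 7.81%, TGATAA by 8.16% and TGATAG by 6.50%, and at least 1 of these motifs by 27.1%. Cd44 had 1 match, AGATAA, which starts at position -233 from the start site. Vim and Ahnak had none of these letters in the window. CANNTG, the E-box letters, matched in 66.0% of promoters and in none of the 3 shown. TATAAA began at -32 in Vim and occurs in 3504 of the 27025 promoters. GGGCGG or its complement began at -78, -68 and -39 in Ahnak, and 32.9% of promoters hold it. These last 2 motifs were chosen after the letters had been seen, no match overlapped another, and a match is only a description of the letters. The Ahnak window had a GC content of 66.4% and 18 CG pairs, against medians of 52.0% and 6 over all promoters, with 58.4% and 8 in Vim and 56.4% and 5 in Cd44.

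GATA-1 WT was first set against the control, that is, cells with and without the functional factor. The control exceeded GATA-1 WT by 20.1-fold to 53.5-fold for Ikzf2, Ahnak, Vim and Lgals1, and Cd44 was not listed.

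Vim stood at 338 scaled reads in the control but 8.82 with GATA-1 WT, and 99.9 with GATA-1 V205M and 234 with GATA-1 2RA. The control was highest and GATA-1 WT lowest, with both mutants between them. GATA-1 WT was at 2.61% of the control, GATA-1 2RA at 69.1% and GATA-1 V205M at 29.6%. The control level was 38.3-fold that of GATA-1 WT (23.0 to 71.8), where 14 reads were counted. The control was 3.38-fold above GATA-1 V205M (2.92 to 4.03), while its ratio to GATA-1 2RA, 1.45 (1.28 to 1.69), was not listed. Against GATA-1 WT, Vim was 26.5-fold higher in GATA-1 2RA (15.6 to 49.0) and 11.3-fold higher in GATA-1 V205M (6.64 to 21.2). The mutants themselves stood apart, GATA-1 2RA being 2.34-fold above GATA-1 V205M (1.95 to 2.78).

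Ahnak had the widest range of the 5 genes, with 71.8 scaled reads in the control but 3.15 with GATA-1 WT, and 261 with GATA-1 V205M and 379 with GATA-1 2RA. GATA-1 WT was below the control, and both mutants were above it. The WT value rests on 5 reads, and the control was 22.8-fold higher (9.61 to 72.6). GATA-1 2RA was listed higher than the control, 5.28-fold (4.24 to 6.45), and so was GATA-1 V205M, 3.63-fold (2.92 to 4.44). Set against GATA-1 WT, these levels were 120-fold (51.3 to 373) and 82.9-fold (35.4 to 257). GATA-1 2RA was 1.45-fold above GATA-1 V205M (1.29 to 1.64), a difference that was not listed.

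Lgals1 was high in the control only, at 438 scaled reads against 8.19 in GATA-1 WT, 9.45 in GATA-1 V205M and 14.3 in GATA-1 2RA. All 3 groups with a GATA-1 form were listed lower than the control. The control exceeded GATA-1 WT 53.5-fold (31.2 to 101), GATA-1 2RA 30.6-fold (19.8 to 50.7) and GATA-1 V205M 46.3-fold (29.4 to 73.7). These 3 groups rest on 13, 20 and 21 reads and did not differ among themselves beyond counting error. GATA-1 2RA was 1.75 times GATA-1 WT (0.826 to 3.82) and 1.51 times GATA-1 V205M (0.757 to 2.85), and GATA-1 V205M was 1.15 times GATA-1 WT (0.567 to 2.58). None of these ratios was listed, and differences of up to these upper limits cannot be told from none at this depth.

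Ikzf2 stood at 75.8 scaled reads in the control but 3.78 with GATA-1 WT, and 82.5 with GATA-1 V205M and 48.6 with GATA-1 2RA. Only GATA-1 WT was low, with 6 reads, and it was listed below each of the other 3 groups. The control was 20.1-fold above it (9.13 to 56.9), GATA-1 2RA 12.9-fold (5.61 to 36.3) and GATA-1 V205M 21.8-fold (9.81 to 60.2). Neither mutant was listed against the control. GATA-1 V205M was 1.09 times the control (0.838 to 1.35), an interval that holds 1, and GATA-1 2RA was 0.641 times the control (0.459 to 0.853). GATA-1 V205M was 1.70-fold above GATA-1 2RA (1.27 to 2.28), also not listed.

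Cd44 followed another order, with 290 scaled reads in the control but 174 with GATA-1 WT, and 873 with GATA-1 V205M and 321 with GATA-1 2RA. GATA-1 V205M was listed above each of the other 3 groups. It was 3.01-fold above the control (2.68 to 3.31), 5.02-fold above GATA-1 WT (4.43 to 5.73) and 2.71-fold above GATA-1 2RA (2.45 to 3.02). The control was 1.67-fold above GATA-1 WT (1.45 to 1.97), a difference that was not listed by the authors. It passed 2-fold under both other scalings (log2 changes of -1.46 with equal sums and -1.50 by the median ratio). Both scalings use only the 1157 genes with 4 levels, all listed as changed in some pair. They therefore cannot settle whether this difference exceeds 2-fold. GATA-1 2RA and the control were neighbours, at a ratio of 1.11 (0.958 to 1.25) whose direction turned under the other scalings.

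**Figure D1:**
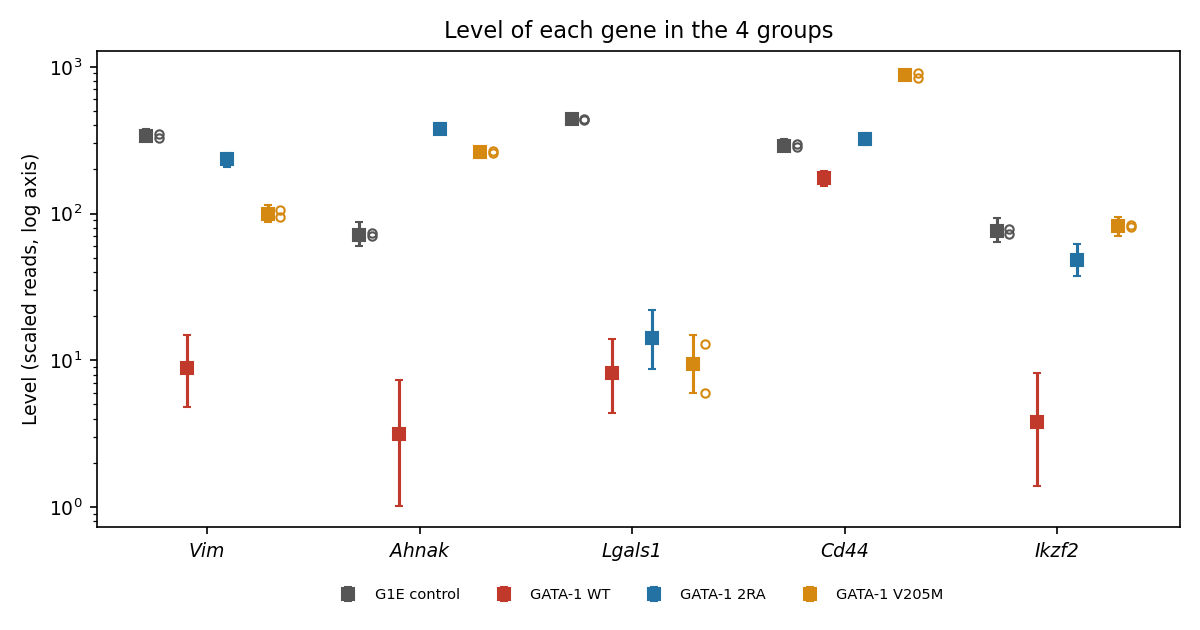
Level of Vim, Ahnak, Lgals1, Cd44 and Ikzf2 (scaled reads, log axis) in the 4 groups, 1 sample each. Squares are the authors' group levels with 95% counting intervals, and open circles are the separate count columns of the control and GATA-1 V205M. GATA-1 WT is lowest for all 5 genes, from 3.15 scaled reads for Ahnak to 174 for Cd44.

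In the order of levels, GATA-1 WT was lowest for each of the 5 genes, though for Lgals1 not beyond counting error. The highest group was the control for Vim and Lgals1, GATA-1 2RA for Ahnak, and GATA-1 V205M for Cd44 and Ikzf2, the last not beyond counting error over the control. The highest level was 120-fold the lowest for Ahnak, 53.5-fold for Lgals1, 38.3-fold for Vim, 21.8-fold for Ikzf2 and 5.02-fold for Cd44. Of the 1157 genes with 4 levels, the order of Vim and Lgals1 (control, 2RA, V205M, WT) was held by 69, that of Ahnak by 33, that of Cd44 by 36 and that of Ikzf2 by 40.

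Counted by comparison, 0 of the 5 genes were listed higher and 4 lower in the pair of GATA-1 WT and control, where 8.17% and 4.86% of all tested genes were listed in these directions. In GATA-1 2RA against the control, 1 was higher (Ahnak; background 4.86%) and 1 lower (Lgals1; background 2.61%). In GATA-1 V205M against the control, 2 were higher (Ahnak and Cd44; background 4.83%) and 2 lower (Vim and Lgals1; background 3.32%). Against GATA-1 WT, 3 were higher in GATA-1 2RA (background 3.33%) and 4 in GATA-1 V205M (background 3.7%), with 0 lower in either (backgrounds 4.04% and 5.65%). Between the mutants, Vim was higher in GATA-1 2RA (background 3.6%) and Cd44 lower (background 2.62%). Since the genes were chosen from these lists, nothing is read from the counts against the background. The 3 comparisons with the control share that control, and those with GATA-1 WT share GATA-1 WT. Nearest to the 2-fold limit were Vim in GATA-1 2RA over GATA-1 V205M (2.34-fold) among the listed pairs and Cd44 in GATA-1 2RA over GATA-1 WT (1.85-fold, 1.59 to 2.16) among the others. The latter passed 2-fold under both other scalings, at log2 changes of 1.30 with equal sums and 1.08 by the median ratio. These scalings use only genes listed as changed in some pair, so they cannot settle which side of the limit it lies on.

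**Figure D2:**
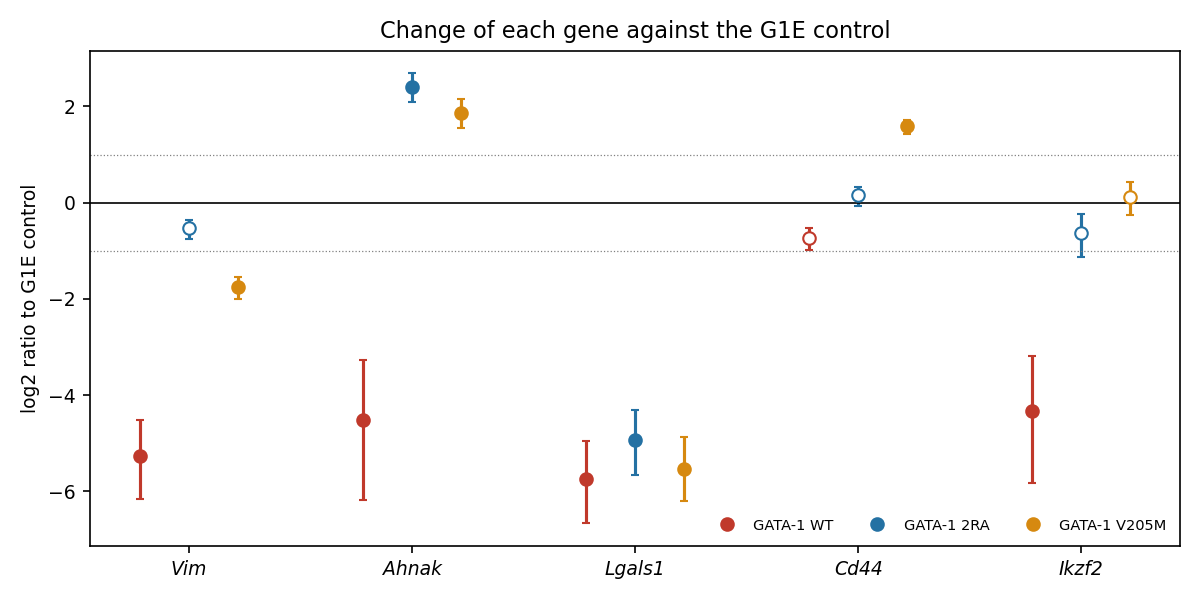
Log2 ratio of each gene's level to the G1E control in each group with a GATA-1 form, with 95% counting intervals as bars. Filled points were listed by the authors, open points were not, dotted lines mark 2-fold, and the GATA-1 WT points run from -5.74 for Lgals1 to -0.74 for Cd44 while both Ahnak points of the mutants lie above 0, at 2.40 and 1.86.

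The separate count columns agreed closely for 4 of the genes. In the control, the ratio of the first to the second column was 1.06 for Vim, 1.05 for Ahnak, 1.02 for Lgals1, 1.05 for Cd44 and 1.08 for Ikzf2. In GATA-1 V205M it was 1.12, 1.04, 2.15, 1.07 and 0.960 in the same order. The Lgals1 value compares 15 reads with 6 (12.9 against 6.01 scaled reads), and its interval of 0.787 to 6.75 holds 1, as do the intervals of all the others. The labels do not say whether columns stand for cultures or for runs, so they are not used as replicates.

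Levels of different genes can be compared only per length. Divided by the exon length of the gene model in GENCODE M21, the control held 485 scaled reads per kb of Lgals1, 71.3 of Vim, 42.8 of Cd44, 6.53 of Ikzf2 and 3.60 of Ahnak. In GATA-1 WT the order was Cd44 (25.7), Lgals1 (9.07), Vim (1.86), Ikzf2 (0.325) and Ahnak (0.158). GATA-1 2RA held 49.3 per kb of Vim, 47.4 of Cd44, 19.0 of Ahnak, 15.8 of Lgals1 and 4.18 of Ikzf2. GATA-1 V205M held 129 of Cd44, 21.1 of Vim, 13.1 of Ahnak, 10.5 of Lgals1 and 7.10 of Ikzf2. The exon lengths were 903 bases for Lgals1, 4743 for Vim, 6776 for Cd44, 11613 for Ikzf2 and 19938 for Ahnak, with all annotated exons merged. A long gene model therefore lowers the value where only a short isoform is made. In GRCm38, Vim lies on chromosome 2 at 13573927 to 13582826, Cd44 on chromosome 2 at 102811141 to 102901665, Ahnak on chromosome 19 at 8989284 to 9076914, Lgals1 on chromosome 15 at 78926725 to 78930465 and Ikzf2 on chromosome 1 at 69531214 to 69687245.

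Relatives of the 5 genes were taken from lists of gene families and binding partners. Of the 12931 tested genes, 2982 were in any table, which is the background for such counts here and below. Of 21 intermediate filament, lamin and linker genes, 7 were in any table. In GATA-1 WT against the control, 1 was listed higher and 4 lower, Vim included, with a median log2 change of -1.41 against 1.24 over all listed genes of that pair, 1057 higher and 628 lower. In GATA-1 2RA 2 were listed above the control and 0 below, and in GATA-1 V205M 0 above and 3 below. Of all tested genes, 8.17% were listed above and 4.86% below the control in GATA-1 WT. The shares were 4.86% and 2.61% in GATA-1 2RA, and 4.83% and 3.32% in GATA-1 V205M. Lmna, the A-type lamin of the nuclear envelope, was highest where Vim was lowest, with 190 scaled reads in the control but 2160 with GATA-1 WT, and 257 with GATA-1 V205M and 1132 with GATA-1 2RA. Lmnb1, the B-type lamin, was listed lower in GATA-1 WT (54.8 scaled reads) and GATA-1 V205M (71.4) than in the control (161). Plec, the linker plectin, was at 45.3 in GATA-1 WT against 121. The muscle filament gene Des was at 19.3 in the control and 0.931 in GATA-1 V205M, which is 1 read in each column. Macf1, which links microtubules to actin, was listed higher in GATA-1 2RA, at 294 scaled reads, than in the control (106), in GATA-1 V205M (128) and in GATA-1 WT (92.0).

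Of 30 annexin and S100 symbols, Ahnak included, only Anxa4 and Anxa5 besides Ahnak were in any table, so the Ahnak partners Anxa2 and S100a10 have no level here. Anxa4, a membrane-binding annexin, was listed higher in GATA-1 V205M than in GATA-1 WT, with 28.3 against 2.52 scaled reads, the direction Ahnak had. Anxa5, another calcium-dependent membrane binder, was lower in GATA-1 2RA (67.9) than in GATA-1 V205M (167).

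Galectins and the galectin-3 ligand gave 4 listed genes of 11, Lgals1 included. Against the control 0 were listed higher and 2 lower in GATA-1 WT (backgrounds 8.17% and 4.86%). In GATA-1 2RA 1 was higher and 3 lower (4.86% and 2.61%), and in GATA-1 V205M 0 higher and 3 lower (4.83% and 3.32%). Lgals9 was the most abundant, with 7277 scaled reads in the control but 1695 with GATA-1 WT, and 3173 with GATA-1 V205M and 1426 with GATA-1 2RA. Like Lgals1 it was listed lower than the control in all 3 other groups, but it kept 43.6% of the control level in GATA-1 V205M, 23.3% in GATA-1 WT and 19.6% in GATA-1 2RA. Lgals1 kept 2.16%, 1.87% and 3.26% there. Lgals3bp, the secreted galectin-3 binding protein, stood at 88.9 scaled reads in the control, against 45.3 in GATA-1 WT, 17.9 in GATA-1 V205M and 8.57 in GATA-1 2RA. It was listed lower than the control in both mutants. Lgals8 was listed higher in GATA-1 2RA, at 276 scaled reads, than in the control (119) and GATA-1 V205M (98.5).

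Among 21 symbols for hyaluronan enzymes, hyaluronan receptors and CD44 partners, 6 were in any table. Against the control 2 were listed higher and 1 lower in GATA-1 WT (backgrounds 8.17% and 4.86%). In GATA-1 2RA 1 was higher and 0 lower (4.86% and 2.61%). In GATA-1 V205M 2 were higher, Cd44 included, and 0 lower (4.83% and 3.32%). Hmmr, a hyaluronan-binding protein of the mitotic spindle, had its highest level where Cd44 was lowest, at 1103 scaled reads in GATA-1 WT, against 196 in the control, 358 in GATA-1 V205M and 359 in GATA-1 2RA. The linkers of CD44 to actin differed. Ezr (ezrin) was listed higher in all 3 groups with a GATA-1 form than in the control (130), most in GATA-1 2RA (689), then GATA-1 WT (516) and GATA-1 V205M (396). Msn (moesin) was listed lower in GATA-1 WT (823) than without it (1723 in the control), and GATA-1 2RA (3243) was above GATA-1 V205M (1508). Cd74, which pairs with CD44 as the receptor for the cytokine MIF, has no control level here and was highest in GATA-1 V205M of the other groups, with 37.3 scaled reads against 3.57 in GATA-1 2RA and 0.630, a single read, in GATA-1 WT. Hyal3, a hyaluronidase, was at 34.0 in GATA-1 WT and 7.01 in GATA-1 V205M. In the Ikaros family, only Ikzf1 joined Ikzf2 in the tables, listed higher in GATA-1 2RA (1625) than in GATA-1 V205M (805), the reverse of the order of Ikzf2.

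**Figure D3:**
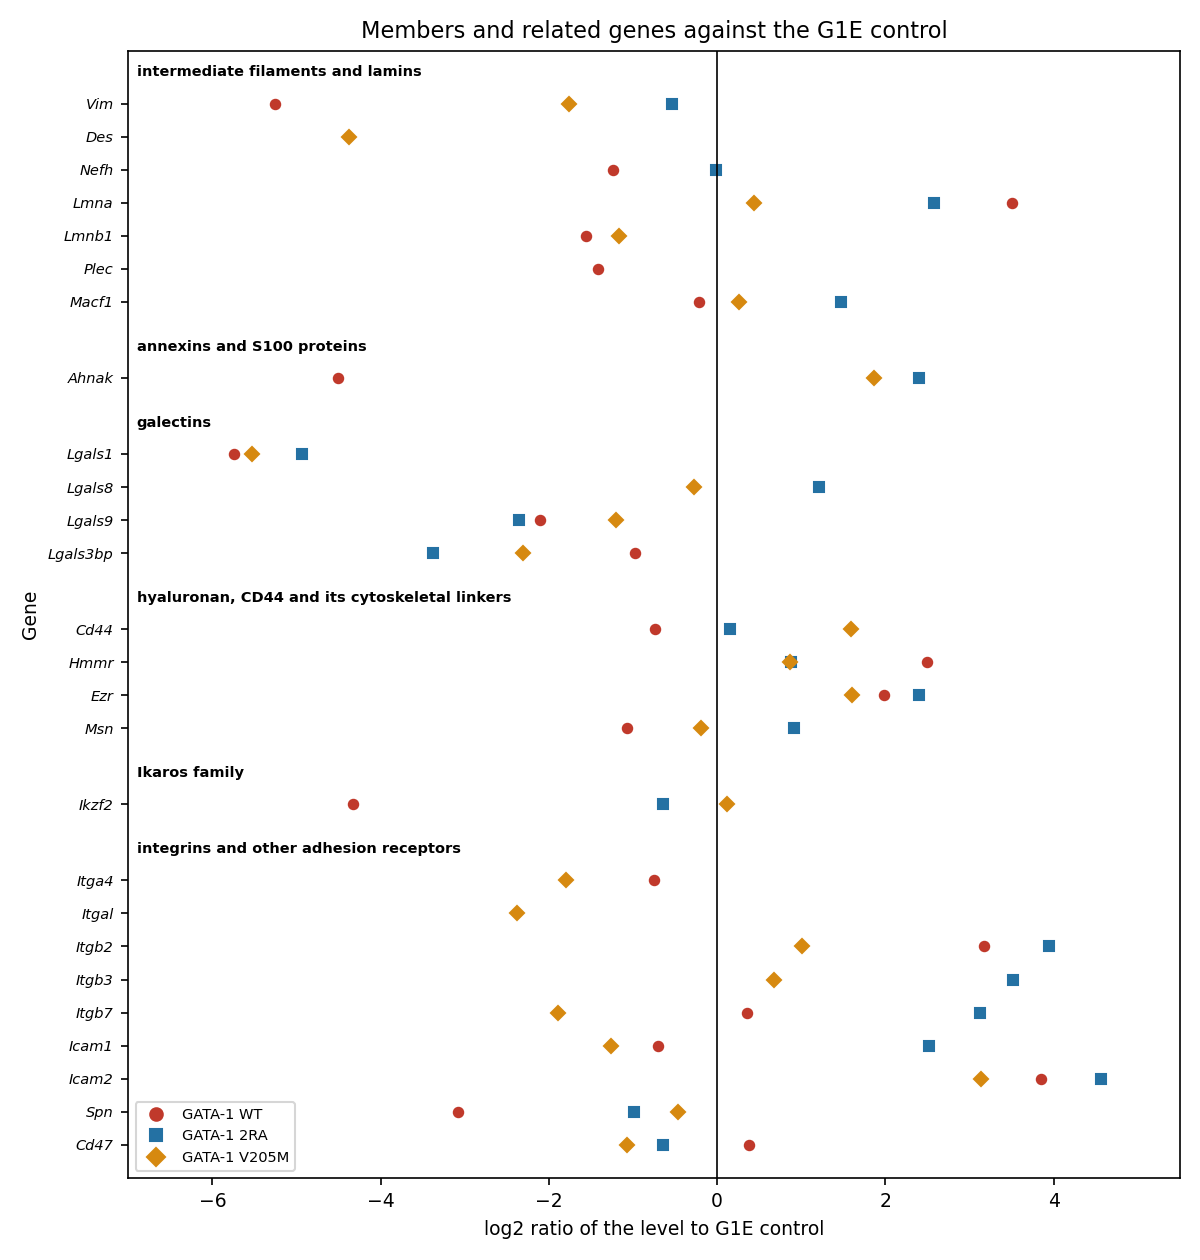
Log2 ratio of the level to the G1E control for the 5 genes and the listed genes of 6 related lists, where a control level exists; each point is 1 sample. Lgals1 and Lgals9 lie below 0 in all 3 groups, Lmna (2160 scaled reads in GATA-1 WT against 190) lies far above 0 in GATA-1 WT, and Ahnak is split between the sides.

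The genes with the most similar pattern were found by the distance between log2 levels over the 4 groups, each gene centred on its own mean. Nearest to Vim were Alox5, an enzyme of leukotriene synthesis (0.71 log2 units), the receptor phosphatase Ptprs (0.85) and H6pd (0.94). Nearest to Ahnak were Npl (1.15), Plekhg3 (1.18) and Tbc1d2b (1.81). Nearest to Lgals1 were the death ligand Tnfsf10 (0.40), the G protein regulator Rgs13 (0.62) and granzyme B, Gzmb (0.95). Cd44 was nearest to the proline dehydrogenase Prodh (0.29), the DNA repair enzyme Parp1 (0.33) and the peroxiredoxin Prdx1 (0.39). Ikzf2 was nearest to Lpcat4 (0.24), to Gata2, the GATA factor of progenitors (0.51), and to Usp18 (0.64). Gata2 stood at 773 scaled reads in the control but 54.8 with GATA-1 WT, and 1316 with GATA-1 V205M and 514 with GATA-1 2RA. Of these 15 neighbours, 10 had 3 reads or fewer in GATA-1 WT, so their distance rests partly on very low counts. Among the 5 genes themselves, Vim and Ikzf2 were closest (1.63) and Ahnak and Lgals1 farthest apart (6.59).

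**Figure D4:**
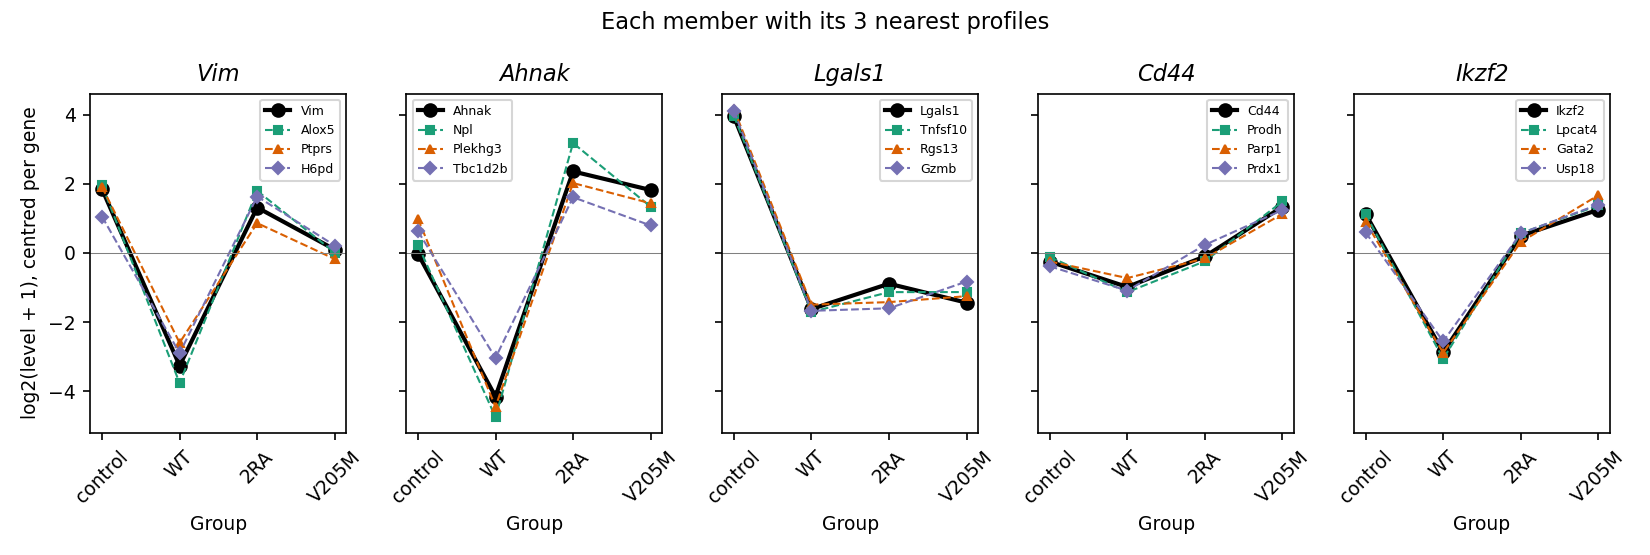
Centred log2(level + 1) of each of the 5 genes (black) and its 3 nearest genes over the 4 groups, 1 sample each. The Lgals1 set is high in the control alone, the Cd44 set peaks in GATA-1 V205M, and the Vim, Ahnak and Ikzf2 sets dip in GATA-1 WT, with the 4 Ikzf2 profiles within 0.64 log2 units of distance of Ikzf2.

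Cell type markers were read beside these values. Of 22 erythroid symbols, older names included, 14 were listed above the control in GATA-1 WT and 0 below it, against 8.17% and 4.86% of all tested genes. In GATA-1 2RA 4 were above the control and 5 below (backgrounds 4.86% and 2.61%). In GATA-1 V205M 4 were above and 7 below (backgrounds 4.83% and 3.32%). Gata1, the introduced gene, is counted among those above the control in each of these groups, and its rise was built into the design. Summed over the 6 listed mast cell markers of 14, levels were 3272 scaled reads in the control but 15.7 with GATA-1 WT, and 1877 with GATA-1 V205M and 223 with GATA-1 2RA. Cpa3, a mast cell protease, made up 2795 of the control sum and stood at 14.6 in GATA-1 V205M. Without regard to the sum, all 6 were listed below the control in GATA-1 WT (background 4.86%). In GATA-1 2RA 1 was above the control and 4 below (backgrounds 4.86% and 2.61%). In GATA-1 V205M, where Cd44 was highest, 4 were above the control and 2 below (backgrounds 4.83% and 3.32%). Tpsab1, a tryptase, was 8.61-fold and Il1rl1, the receptor for interleukin-33, 5.40-fold above the control. Hdc, the enzyme that makes histamine, was 4.10-fold and Ms4a2, a chain of the IgE receptor, 2.74-fold above it. The 2 below were Cpa3 and Gzmb (1.93 scaled reads in GATA-1 V205M), with the control 191-fold and 45.9-fold higher. Over the 5 progenitor markers with 4 levels, of 14 symbols, the sums were 3748 for the control and 347 for GATA-1 WT, with 3252 in GATA-1 V205M and 3484 in GATA-1 2RA. Kit made up 2429 of the control sum. Meis1 went another way, at 15.4 scaled reads in the control, 17.6 with GATA-1 WT, 57.2 with GATA-1 V205M and 276 with GATA-1 2RA. Of the 14, 0 were listed above the control and 5 below in GATA-1 WT (backgrounds 8.17% and 4.86%). In GATA-1 2RA 1 was above and 0 below (4.86% and 2.61%), and in GATA-1 V205M 1 above and 2 below (4.83% and 3.32%). Of 20 fibroblast and stromal markers, cells rich in vimentin, galectin-1 and CD44, only Col5a1 was in any table, at 104 scaled reads in GATA-1 WT, 6.45 in the control, 11.6 in GATA-1 V205M and 0.714 in GATA-1 2RA. Endothelial markers gave only Egfl7 of 11, at 183 scaled reads in GATA-1 WT, 109 in GATA-1 V205M, 36.4 in GATA-1 2RA and 8.79 in the control. Megakaryocyte markers gave 6 of 14. Against the control, 1 was listed higher and 1 lower in GATA-1 WT (backgrounds 8.17% and 4.86%). In GATA-1 2RA 3 were higher and 0 lower (4.86% and 2.61%), and in GATA-1 V205M 0 higher and 3 lower (4.83% and 3.32%). The 1 higher in GATA-1 WT was Tubb1, at 63.6 scaled reads against 1.83 in the control and 0.931 in GATA-1 V205M. Between the mutants, 4 were higher in GATA-1 2RA, as Vim was, and 0 were lower (backgrounds 3.6% and 2.62%). Plek (pleckstrin), abundant in platelets, had a level of 1319 with GATA-1 2RA but only 18.7 with GATA-1 V205M. None of 20 macrophage and neutrophil markers and none of 16 lymphocyte markers was listed, so their levels are unknown here. The part of such cells in these results was not tested, and in bulk RNA fewer cells of a type and less RNA per cell cannot be told apart.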

How the data were processed

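RNA was sequenced from 4 samples of G1E cells with a TruSeq RNA kit, per the labels' protocols. The submitters' processing notes name TopHat, Cufflinks, Cuffdiff, deepTools and mm10, without saying whether any of these tools made these tables, and with no version. The authors' deposited tables hold, per pair of groups, a signal for each group (read counts divided by a size factor), its fold or ratio, the log2 of that fold, and a p-value with its Benjamini-Hochberg adjustment. The plan allowed for other units, and the levels proved to be whole reads times fixed steps: reads were recovered within 1e-06 scaled reads for 100.0% of the values. The steps gave size factors of 0.357 to 1.59 for 6 count columns. The lowest count was 1 in each, and whether genes with 0 reads were left out or 1 was added is not stated in the tables. The pseudocount for log2 distances was 1 scaled read, and none was added here to the listed folds.

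Levels were taken from any table listing the gene. Intervals used the pooled reads of a group. Python 3.11.15, scipy 1.17.1 and R 4.3.3 with edgeR 4.0.16 were used. Positions and exon lengths came from GENCODE M21, which held 2731 of the 2982 symbols. The genes and lists were chosen with earlier results of these data known. Named genes were the 5 genes, Gata1 and the 3 nearest profiles of each gene. Added were up to 6 listed genes per related list and up to 3 per marker list by size of change. Gata2, Col5a1 and Egfl7 fall under these rules. Exceptions were the mast cell markers, of which all 6 listed were named, and the markers Kit and Gp5, which were named outside the limit of 3. Read recovery and the count test were tested on simulated data. Alternatives were other pseudocounts, scalings, fold limits and filters, and a count test.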

Additional observations from a re-analysis of the deposited data

Results flagged for a closer look

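Ahnak moved in opposite directions against the same control. Its log2 change was -4.51 in GATA-1 WT, 1.86 in GATA-1 V205M and 2.40 in GATA-1 2RA, and the authors listed all 3. With 1 sample a group, the difference between GATA-1 WT and either mutant in their response was not tested.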

How the results depend on the processing

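With a 4-fold limit, GATA-1 V205M against the control had 0 of the 5 genes higher and 1 lower, and the mutants against each other had 0 in either direction. Counts over 2-fold in the levels alone were the same as the authors' in all 12 comparisons and directions. edgeR's quasi-likelihood test on the recovered reads of 1157 genes, an alternative chosen after seeing the data, also gave the same 12 counts of members. It takes its spread from count columns of 1 sample and compares libraries rather than conditions. It also uses the same reads and limits as the authors' listing, over genes already selected by the authors, so equal counts lend those counts no support. With at least 50 scaled reads in the higher group, genes of the 7 related lists were counted again, without the 5 genes. Those listed lower in GATA-1 V205M than in the control went from 13 to 8. Those higher in GATA-1 V205M than in GATA-1 WT went from 4 to 1. Without the filter, 3.32% and 3.7% of all tested genes were listed in these directions, and the shares with the filter were not computed. Pearson correlation kept 4 of the 15 nearest genes. Scaling to equal sums over the 1157 genes moved the groups against the control by 0.73 (GATA-1 WT), 0.31 (GATA-1 V205M) and 0.32 (GATA-1 2RA) on the log2 scale, and the median ratio by 0.77, 0.24 and 0.57. All 1157 genes were listed as changed in some pair, so neither scaling rests on unchanged genes. Under these scalings no listed change of the 5 genes changed sign. Of the unlisted ones, Cd44 in GATA-1 2RA against the control turned from 0.15 to -0.17 and -0.42, and Ikzf2 in GATA-1 V205M from 0.12 to -0.18 and -0.12. By the median ratio, Vim and Ikzf2 in GATA-1 2RA against the control passed 2-fold, at -1.10 and -1.19, as did Ikzf2 in GATA-1 2RA against GATA-1 V205M, at -1.07, while Vim between the mutants fell within it, at 0.89. Cd44 in GATA-1 2RA against GATA-1 WT passed 2-fold with equal sums (1.30) and by the median ratio (1.08), as did Cd44 in GATA-1 WT against the control (-1.46 and -1.50), and Lgals1 in GATA-1 2RA against GATA-1 WT with equal sums only, at 1.07. A pseudocount of 5 moved the Ahnak changes against or in GATA-1 WT beyond their counting interval, to -3.24, 5.56 and 5.03, where 5 reads limit the value. No paired analysis was possible because each group has 1 sample.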

Other observations

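Genes of cell adhesion and the actin skeleton, relatives of Cd44 and Vim by function, were highest in GATA-1 2RA in several cases. Against GATA-1 V205M, 5 of 47 integrins and adhesion receptors and 7 of 33 actin-binding genes were listed higher in GATA-1 2RA and 0 lower. Of all tested genes, 3.6% were listed higher and 2.62% lower in that pair. The median log2 changes of the 2 lists were 2.93 and 1.43, against 1.75 over the 466 genes listed higher in that pair. Whether the counts differ from the shares of all tested genes was not tested. Megakaryocyte markers were higher too in that pair, 4 of 14 and 0 lower, among them Plek (1319 against 18.7 scaled reads), Gp5 (63.6 against 5.94) and Itgb3 (87.2 against 12.2), which is also an integrin of the first list, and their part in these values was not tested. Itgb7, an integrin chain of lymphocyte homing, stood at 26.2 scaled reads in the control, 33.4 with GATA-1 WT, and 7.09 with GATA-1 V205M and 228 with GATA-1 2RA. Itgb2, the leukocyte integrin chain, stood at 47.3, 428, 95.3 and 729 in the same groups, and the adhesion ligands Icam1 and Icam2 at 82.2 and 116 in GATA-1 2RA. Gsn (gelsolin), which severs actin filaments, was at 187 in GATA-1 2RA and between 3.65 and 9.45 elsewhere. Zyx (zyxin), a focal adhesion protein, was at 222 in GATA-1 2RA against 43.3 in the control, with 13.9 in each of the other groups. Other genes were lowest in GATA-1 WT, as Vim was: the filamin Flna (64.9 against 110 to 568 elsewhere), Coro1a (8.82 against 40.5 to 110) and the sialomucin Spn (97.0 against 414 to 818). Whether the adhesion values moved with those of the 5 genes was not tested.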
